A study of Homo sapiens with 4 samples.

Results

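The genes described here are 9 human genes that restrain the growth kinase mTOR or curb growth when a cell is under stress: *DDIT4*, *DDIT4L*, *SESN1*, *SESN2*, *SESN3*, *TXNIP*, *NDRG1*, *TSC1* and *TSC2*. They were chosen by name, from the gene symbols in the RNA-seq tables, and all 9 were found among the 58243 genes of those tables and among the 19645 protein-coding genes that could be matched between the annotations of the RNA-seq and ChIP-seq data. The study treated HK2 cells, a line of human renal proximal tubular cells, with 50 μM FG-4592 (roxadustat), which blocks the prolyl hydroxylases and so stabilizes HIFα proteins, for 6 h according to its methods. Analysed here were 2 HIF1α ChIP-seq libraries and 2 RNA-seq libraries, and all 4 came from treated cells. HK2 was immortalized with oncogenes of a papillomavirus, which limits the line as a model of normal growth control. Because every library carried the same treatment, the values are levels and positions under FG-4592, with no fold change and no test, and nothing in the labels says whether replicates were separate cultures.

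mTOR complex 1 drives protein synthesis and growth when it is switched on at the lysosome by the small GTPase RHEB, and the complex of TSC1 and TSC2 keeps RHEB inactive. DDIT4 (also called REDD1) relieves TSC2 from inhibition under hypoxia and other stress, while the sestrins act on the GATOR complexes that govern the Rag GTPases, so both kinds of protein lower mTOR complex 1 activity. TXNIP binds thioredoxin and limits glucose uptake, and NDRG1 is a cytoplasmic protein long known to be induced by hypoxia and to slow the growth of tumour cells.

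The ChIP-seq lists were unlike each other. Replicate 1 held 1689 peaks and replicate 2 held 16953. The sequence ACGTG or GCGTG, the core of a hypoxia response element, was searched for in the 1661 and 16648 peaks that lay on the chromosomes read, and lay on either strand in 1483 of them in replicate 1 (89.3%) and 8132 in replicate 2 (48.8%), at 7.52 and 1.77 cores per kb. Of all replicate 1 peaks on annotated chromosomes 33.5% were centred in an exon, and of all replicate 2 peaks 80.8%. Inside the 9 genes, none of the 2 replicate 1 peaks was centred in an exon, whereas all 17 replicate 2 peaks were. Those replicate 1 peaks still had 49.4% of their bases in exons at *DDIT4* and 43.9% at *SESN1*. Whether the replicate 2 positions mark binding of HIF1α was not tested. It is also not known whether this was the intended list, and the replicate 2 peaks are described as positions of the list as deposited. The RNA-seq libraries covered 4442 Mb in replicate 1 and 4202 Mb in replicate 2, as coverage multiplied by transcript length, and read counts were not used here.

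The cells expressed most markers of renal epithelium but few of the mature proximal tubule. Levels are given in FPKM, the fragments of a transcript scaled by its length and by the library's mapped fragments, summed over the transcripts of a gene. Of 10 proximal tubule markers, 2 had a mean FPKM of at least 1: *GGT1*, a brush border peptidase, at 62.3 in replicate 1 and 58.5 in replicate 2, and *SLC5A2*, a glucose transporter, at 2.59 and 1.70. *LRP2*, the endocytic receptor megalin, and *HNF4A*, a transcription factor of the mature tubule, were listed at 0 in both libraries, and *AQP1*, the water channel, stood at 0.0914 and 0.0593. The 10 markers summed to 65.4 and 60.8 FPKM. Of 8 markers of renal epithelium 7 reached an FPKM of 1, with *KRT19* (184 and 177) the most abundant and *PAX8*, a transcription factor of the kidney lineage, at 121 and 114, while the cadherins of this list were split, with *CDH1*, the epithelial cadherin, low at 0.211 and 0.379 and *CDH2*, the neural cadherin, at 63.8 and 63.7. These 8 summed to 669.7 and 658 FPKM. Of 9 markers of other kidney cells 1 passed, the collagen gene *COL1A1* at 38.7 in both libraries, and 6 (*UMOD*, *SLC12A1*, *AQP2*, *NPHS1*, *PECAM1* and *PTPRC*) were listed at 0. Their sum was 39.3 in each library.

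Of the 9 genes, 7 had a mean FPKM of at least 1, beside 59.7% of the 19645 protein-coding genes. The median level was 19.1 FPKM over the 9 genes and 3.38 over the protein-coding genes, and with transcripts annotated as protein coding alone it was 7.58 and 2.29 (chosen after seeing the data). By FPKM summed over all transcripts, *DDIT4*, *NDRG1* and *TXNIP* were all among the 276 most abundant protein-coding genes. This place of *NDRG1* depended on the transcripts counted, since its mean of 210 FPKM fell to 41.7 with protein-coding transcripts alone. Neither *DDIT4L* nor *SESN3* exceeded 0.203 FPKM in either library. In bulk RNA, fewer cells that express a gene and less of its RNA per cell cannot be told apart.

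**Figure D1:**
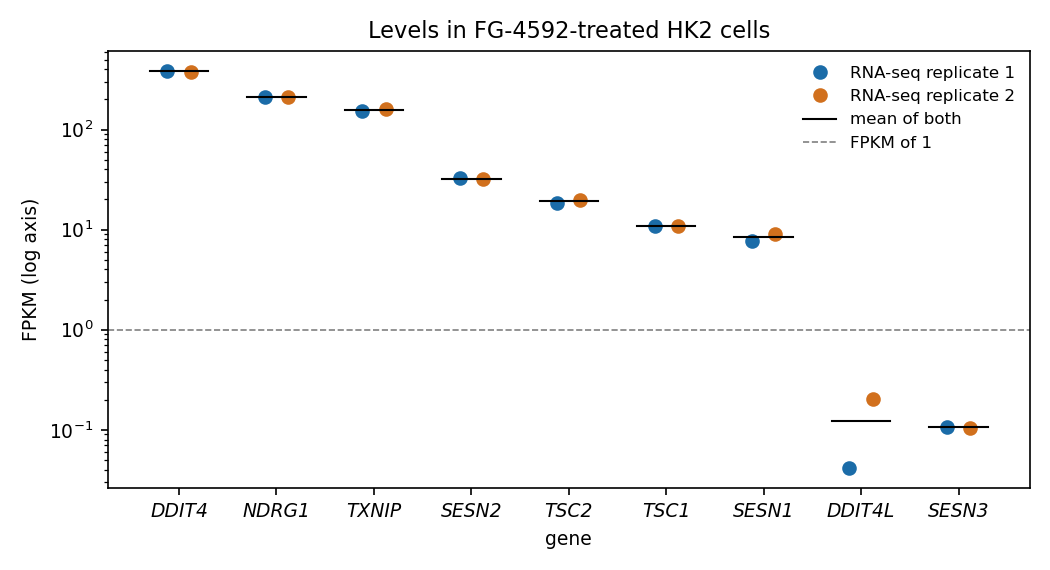
Level of each gene in FPKM, on a log axis, with 1 point for each RNA-seq library, a bar for their mean and a dashed line at an FPKM of 1. *DDIT4* was highest at 388 and 376, and the points of *DDIT4L*, at 0.0416 and 0.203, come from different transcripts.

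The libraries gave the same order for the first 7 genes, from *DDIT4* through *NDRG1*, *TXNIP*, *SESN2*, *TSC2* and *TSC1* to *SESN1*. No neighbours among these 7 overlapped in their replicate values, and the widest step among them was that from *TXNIP* to *SESN2*, a ratio of means of 4.82. *DDIT4L* and *SESN3*, at the bottom, did overlap. Over the 9 genes the median size of the log2 difference between the libraries, with a pseudocount of 1, was 0.05, beside 0.12 over the 11726 expressed protein-coding genes. These sets differ in level. The 9 include the nearly absent *DDIT4L* and *SESN3*, and the 7 expressed ones had a median of 32.4 FPKM, beside 10.8. Nothing particular to the 9 genes is read from the difference.

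Part of this order depended on which transcripts were counted. With transcripts annotated as protein coding alone, *TXNIP* (153 FPKM) stood above *NDRG1* (41.7), and *SESN1* (7.58) stood above *TSC1* (7.21) and *TSC2* (6.44). With the median coverage of the exons of a reference transcript, put on the FPKM scale and chosen after seeing the data, *TXNIP* at 187 again stood above *NDRG1* at 173, and *SESN1* at 8.53 above *TSC1* at 7.87. By the largest transcript, however, *TSC1* (4.48) stood above *SESN1* (4.37). Replicate values overlapped for *TXNIP* and *NDRG1* with exon coverage. They also overlapped for *SESN1* and *TSC1* with protein-coding transcripts and with the largest transcript. *DDIT4* came first, and *SESN2* directly below the leading 3, under all of these measures.

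**Figure D2:**
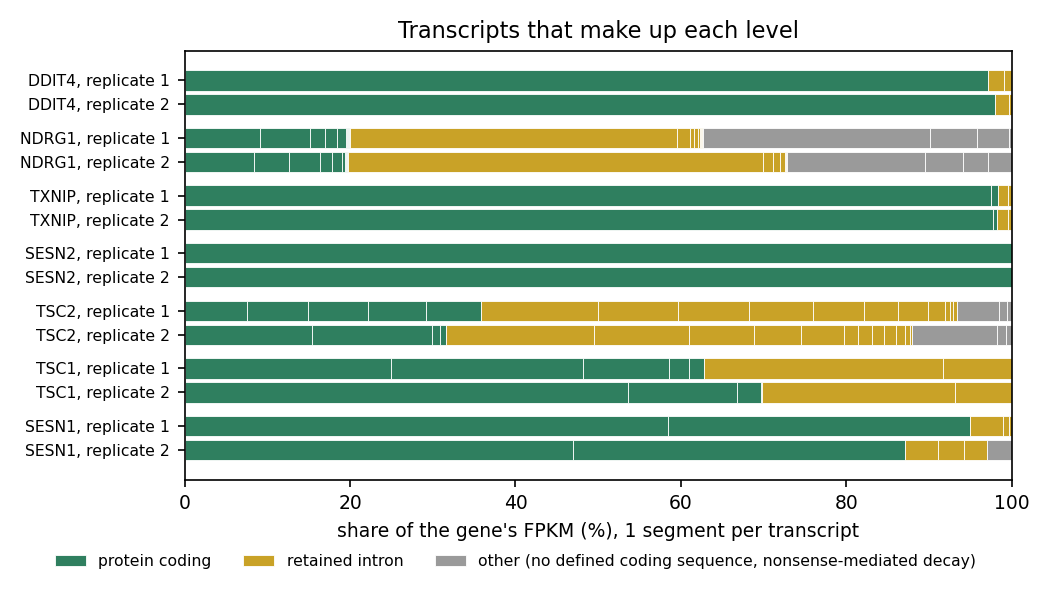
Share of each gene's FPKM in percent that each annotated transcript took, 1 segment per transcript and 1 bar per RNA-seq library, coloured by transcript type, for the 7 expressed genes. Protein-coding transcripts were assigned 97.2% and 98.0% of *DDIT4* but 20.0% and 19.7% of *NDRG1*. These shares depend on how reads were divided among transcripts with shared bases.

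Peaks were counted at promoters, taken as 1 kb to either side of any annotated start site on GRCh37. In ChIP-seq replicate 1, 2 of the 9 genes had a promoter peak (*DDIT4* and *SESN1*), beside 5.49% of protein-coding genes. In replicate 2 there were 3 (*DDIT4*, *TXNIP* and *TSC2*), beside 14.0%. *DDIT4* was the 1 gene with a promoter peak in both, beside 1.79%, although its peaks did not overlap each other, so that 0 of the 9 had overlapping promoter peaks, beside 0.926%. Within 50 kb of the gene body, 5 of the 9 had a replicate 1 peak, beside 18.0% of protein-coding genes, and 7 of the 9, all but *DDIT4L* and *SESN1*, had a replicate 2 peak, beside 68.8%. Expressed genes carried promoter peaks more often than this background, with 8.60% in replicate 1, 20.0% in replicate 2 and 2.87% in both, and 23.1% of them had a replicate 1 peak and 80.0% a replicate 2 peak within 50 kb.

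**Figure D3:**
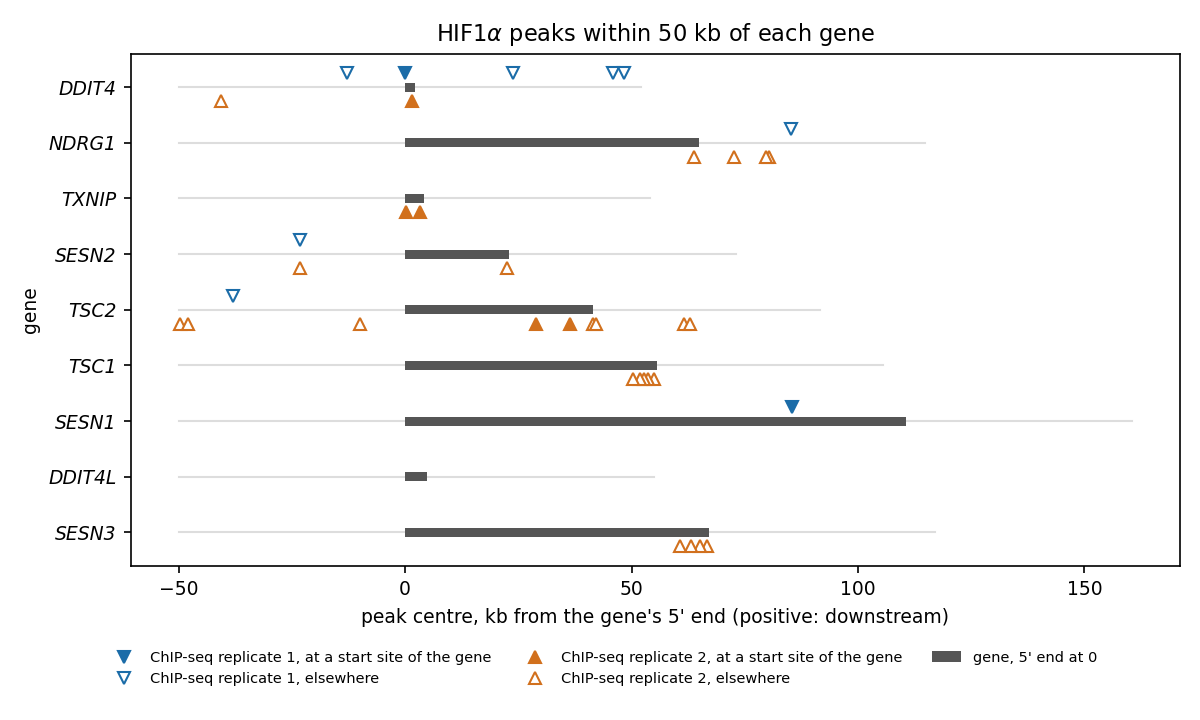
Centres of HIF1α peaks around each gene, in kb from its 5′ end and with positive values downstream, for ChIP-seq replicate 1 (triangles pointing down) and replicate 2 (triangles pointing up), filled where the peak lies within 1 kb of a start site. *DDIT4* had 5 replicate 1 peaks within 50 kb, and the replicate 2 peaks of *SESN3*, *TSC1* and *TXNIP* lay within the gene.

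*DDIT4* (ENSG00000168209, chr10:74033678-74035794, plus strand, GRCh37) reached 388 FPKM in RNA-seq replicate 1 and 376 in replicate 2, a mean of 382 ± 8.47 (SD, n = 2), which ranked 112 among the 19645 protein-coding genes. This small protein is the stress-induced inhibitor that acts through TSC2. Nearly all of its RNA was the spliced coding form, with 97.2% and 98.0% of the FPKM in a single protein-coding transcript of 1748 bases, and 2 transcripts with a retained intron shared the rest. Its 3 exons had mean coverages of 1918, 2988 and 1943 reads per base in replicate 1 and of 1719, 2668 and 1805 in replicate 2, the middle exon being highest in both.

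HIF1α replicate 1 had a peak across the *DDIT4* start site, at chr10:74033333-74033757, with 4 hypoxia response element cores and the nearest 14 bp from the peak's centre. Since this peak spans the start of the most abundant of the 9 genes and holds several cores, the 250 bases directly upstream of the start are shown, from chr10:74033428-74033677 on the plus strand of GRCh37. Capitals mark the 3 of the 4 cores that lie in these bases, and the middle of these begins at 74033557, with its centre 119 bp upstream of the start.
DDIT4 upstream: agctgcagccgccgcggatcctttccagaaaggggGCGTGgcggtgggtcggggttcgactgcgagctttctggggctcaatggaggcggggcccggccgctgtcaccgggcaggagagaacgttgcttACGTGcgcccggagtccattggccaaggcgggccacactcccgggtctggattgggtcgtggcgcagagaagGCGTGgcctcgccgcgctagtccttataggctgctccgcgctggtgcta

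Replicate 1 placed 4 further peaks within 50 kb of *DDIT4*, making 5 in all, a number reached by 12 of the 19645 protein-coding genes (0.0611%), a count chosen after seeing the data. In replicate 2 as many were reached by *TSC1* with 5 and *TSC2* with 9, and by 15.4% of protein-coding genes, while *DDIT4* had 2. The peak at chr10:74020549-74021046 lay 12632 bp upstream of the start and held 3 cores. Downstream, the peak at chr10:74057062-74057983 lay 23285 bp from the nearest *DDIT4* start and held 4. *DDIT4* was the protein-coding gene with the nearest start for these peaks. The last pair, at chr10:74079298-74079730 with 2 cores and chr10:74081944-74082241 with 3, lay nearer to the start of *DNAJB12*, a co-chaperone gene, at 16893 and 14382 bp. None of the 4 had bases in an annotated exon. The stretches around the cores nearest the centre of the upstream peak, the downstream peak and the first of the last pair are shown with 12 bases to either side, on the plus strand of GRCh37 and with the core in capitals (CACGT is ACGTG read on the other strand), at chr10:74020790-74020794, chr10:74057459-74057463 and chr10:74079482-74079486. A match in these letters is a description and not a measured site.
DDIT4 upstream peak: cgttctccaagtCACGTcccccgcttccc
DDIT4 downstream peak: gcaggaaggctcGCGTGcgcgaggccaca
DDIT4 distal peak: gctgtgtgcacaACGTGcagggctgcgaa

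The replicate 2 peak counted for the *DDIT4* promoter lay elsewhere. It was at chr10:74034651-74035586, 874 bp from the nearest annotated start, and covered 69.7% of the last exon. All of its bases lay in exons, beside 49.4% of those of the replicate 1 peak across the start. It held 4 cores, counted on both strands, the nearest 203 bp from its centre. The other replicate 2 peak within 50 kb, at chr10:73992796-73993418, lay wholly in exon bases nearest to *ANAPC16* and held no core. No replicate 2 peak overlapped the peak across the *DDIT4* start.

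*DDIT4L*, the paralog of *DDIT4* that is known from muscle, was close to absent. Its FPKM was 0.0416 in replicate 1 and 0.203 in replicate 2, and the libraries assigned these values to different transcripts. These have 2604 and 852 bases, so the FPKM values differ more than the covered bases behind them, which came to 599 and 899. Over the exons of the longer transcript the mean coverage was 0.230 and 0.211 reads per base. Neither ChIP-seq replicate had a peak within 50 kb, and the nearest lay 89516 bp from the gene in replicate 1 and 89525 bp in replicate 2. The RefSeq window around its start held no core.

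The sestrins, stress-induced proteins that restrain GATOR2, differed among themselves by orders of magnitude. *SESN2* (ENSG00000130766, chr1:28586029-28609002, plus strand) had 32.6 FPKM in replicate 1 and 32.1 in replicate 2, a mean of 32.4 ± 0.347 (SD, n = 2). It is annotated with a single transcript, so its level does not depend on the division of reads among isoforms. Its 10 exons lay between 155 and 262 reads per base in replicate 1 and between 146 and 246 in replicate 2, with the first exon highest in both. *SESN2* thus stood at percentile 90.0 of protein-coding genes.

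*SESN1* (ENSG00000080546, chr6:109305512-109416049, minus strand), a sestrin known to be induced by genotoxic stress, had 7.69 FPKM in replicate 1 and 9.03 in replicate 2, a mean of 8.36 ± 0.946 (SD, n = 2). The RNA was divided between a pair of start sites. A short form that starts at 109330758 had 4.50 and 4.24 FPKM, which was 58.5% and 47.0% of the gene. The long form that starts further upstream, at 109416049, had 2.80 and 3.62 FPKM, or 36.5% and 40.1%. The first exon of the short form had a coverage of 18.8 reads per base in replicate 1 and 40.6 in replicate 2, and that of the long form 14.2 and 18.7, so the replicates differed more at the short form's first exon than in the level assigned to it.

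The HIF1α peak of replicate 1 at *SESN1* lay at the start of the short form. It ran over chr6:109330336-109330738, 20 bp from the start at 109330758, and held 1 core, 61 bp from its centre. Replicate 2 had no peak within 50 kb, and its nearest lay 76382 bp from the gene. The core at chr6:109330474-109330478 is shown on the minus strand, the strand of the gene, with the core in capitals, because it is the single core under the peak at this internal start site.
SESN1 peak: caacacggaggtCACGTtgcctcctcaca

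No peak lay at the *SESN2* start in either replicate. Upstream of it, however, the lists held the 1 pair of overlapping peaks within 50 kb of any of the 9 genes, at chr1:28562603-28562891 in replicate 1 and chr1:28562737-28563056 in replicate 2, 23138 and 22973 bp from the *SESN2* start. They lay at the start of *ATP5IF1*, the gene of the inhibitor of mitochondrial ATP synthase, which had 116 and 105 FPKM. The replicate 1 peak held 3 cores, of which the nearest lay 4 bp from its centre, at chr1:28562741-28562745, shown here on the plus strand with the core in capitals. A further replicate 2 peak, at chr1:28608106-28608842, lay in the last exon of *SESN2*.
SESN2 upstream peak: ttggcgtgtgggGCGTGaggaccatgcaa

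*SESN3*, the sestrin under the control of FOXO factors, had 0.108 and 0.105 FPKM, all in 1 of its 6 annotated transcripts. Yet replicate 2 had 4 peaks in the gene, and together they covered 6399 of the 7829 bases of its last exon, or 81.7%. The nearest replicate 1 peak lay 556913 bp away. The last exon itself had a coverage of 0.331 and 0.464 reads per base in the RNA-seq. A long noncoding RNA is annotated across the gene on the other strand, and without the strand of reads the 2 cannot be told apart where they overlap.

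The percentage of the last exon that lay in replicate 2 peaks followed the order of the levels only in part. It was 94.2% in *NDRG1*, 89.6% in *TXNIP*, 81.7% in *SESN3*, 69.7% in *DDIT4*, 50.9% in *TSC1*, 41.5% in *SESN2* and 28.7% in *TSC2*, and 0 in *SESN1* and *DDIT4L*. The most abundant genes, *DDIT4*, *NDRG1* and *TXNIP*, were thus high, but so was *SESN3* at a mean of 0.106 FPKM. Whether this percentage is linked to the level was not tested. Replicate 1 peaks covered no base of any of these last exons. The cause of the difference between the replicates was not tested.

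*TSC2* (ENSG00000103197, chr16:2097968-2139492, plus strand) encodes the GTPase-activating partner of the complex on which DDIT4 acts. It had 18.6 FPKM in replicate 1 and 19.6 in replicate 2, a mean of 19.1 ± 0.699 (SD, n = 2). This level was divided among 22 of its 26 annotated transcripts, and the leading transcript differed between the libraries, with 14.2% of the FPKM in replicate 1 and another with 17.9% in replicate 2. Protein-coding transcripts took 35.8% and 31.6%, and 12 of the 26 are annotated as retaining an intron. The median exon of its reference transcript had a coverage of 57.5 and 50.7 reads per base, and the first exon 1.36 and 1.58. The 3′ end of *TSC2* overlaps that of *PKD1* on the other strand, and reads from the overlap cannot be told apart without their strand.

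*TSC1* (ENSG00000165699, chr9:135766735-135822261, minus strand), which stabilizes TSC2, had 11.0 FPKM in replicate 1 and 10.8 in replicate 2, a mean of 10.9 ± 0.108 (SD, n = 2). Here too the sum was steadier than its parts. The leading transcript was a form with a retained intron in replicate 1, with 28.9%, and a protein-coding form in replicate 2, with 53.7%. The reference coding transcript, ENST00000298552, was given 2.55 FPKM in replicate 1 and 0.00973 in replicate 2. Its first exon had a coverage of 9.15 and 10.5 reads per base, below the median exon at 43.4 and 41.1.

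**Figure D4:**
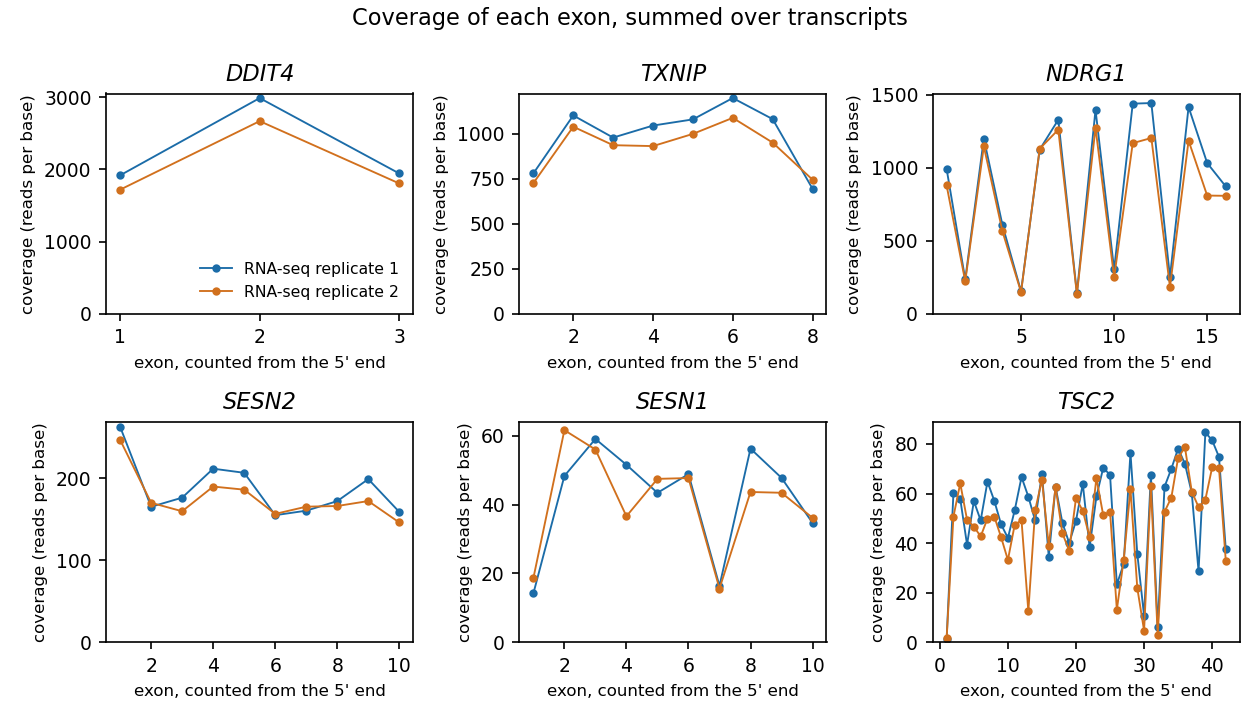
Coverage in reads per base of each exon of a reference transcript, summed over all transcripts that hold it and counted from the 5′ end, for 6 of the genes and both RNA-seq libraries. The 10 exons of *SESN2* stayed between 146 and 262, while exons of *NDRG1* ranged from 141 to 1444 in replicate 1 and *TSC2* began at 1.36. The values are sums of the coverage assigned to each transcript. Exon 8 of *NDRG1* was lowest in both libraries, at 141 and 135, between exons at 1329 and 1397 in replicate 1. The cause of such drops was not tested.

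Neither TSC gene had a replicate 1 peak in its body. For *TSC1* the nearest lay 201559 bp away, and the 5 replicate 2 peaks in the gene all lay in its last exon. For *TSC2* the nearest replicate 1 peak lay 37643 bp upstream, at chr16:2059786-2060325, across the start of *NPW*, a neuropeptide gene with 17.1 and 13.2 FPKM. It held 6 cores, and the nearest to its centre, at chr16:2060007-2060011, is shown on the plus strand with the core in capitals. The promoter peaks counted for *TSC2* in replicate 2, at chr16:2126847-2127073 and chr16:2134283-2134664, lay in exons, 332 and 401 bp from internal start sites, and their centres were 28992 and 36505 bp from the 5′ end of the gene.
TSC2 upstream peak: ggccacgcgtgtCACGTcaacactcgccg

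The RefSeq promoter windows, from 250 bases before to 50 bases after a start, were matched for the 9 genes other than *NDRG1*, which is 8 genes, on GRCh38. At least 1 core was found for 4 of these 8 genes, beside 48.4% of 35116 windows of the same length, and genes with several start sites had more than 1 window. *DDIT4* had 4 cores in its window, which made it the highest of the 8. *TXNIP* had 2 and 1 in its pair of windows and *SESN1* 1 in the window of its short form. The 2 counted for *TSC2* were the same CACGTG read on both strands, since this E-box holds ACGTG in either direction. CACGTG was present in 7.26% of windows, and TGATGNAA, the element read by ATF4 with C/EBP factors, in 3.62%. *TSC2* was the 1 gene of the 8 with either of them. Within 1 kb to either side of the 5′ end all 9 genes had a core, as did 95.2% of protein-coding genes, and the median was 3 cores for the 9 genes and 5 for protein-coding genes.

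*TXNIP* (ENSG00000265972, chr1:145438490-145442635 on GRCh37) encodes the arrestin-fold protein that binds thioredoxin and is itself strongly regulated by glucose. It had 153 FPKM in replicate 1 and 159 in replicate 2, a mean of 156 ± 4.60 (SD, n = 2). A single protein-coding transcript took 97.5% and 97.8% of it. Coverage was even, with exons between 694 and 1198 reads per base in replicate 1 and between 725 and 1088 in replicate 2. HIF1α replicate 1 had no peak within 50 kb, the nearest being 64852 bp away. Replicate 2 had a peak 52 bp from the start, at chr1:145438542-145439007, and another at chr1:145441184-145442485, with 100% and 99.2% of their bases in exons and no core in either.

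*NDRG1* (ENSG00000104419, minus strand) had 211 FPKM in replicate 1 and 209 in replicate 2, a mean of 210.0 ± 0.987 (SD, n = 2), at percentile 99.0. The sum was nearly the same in both libraries, but its division among 26 of 29 annotated transcripts was not. A transcript with a retained intron took 83.5 FPKM in replicate 1 and 105 in replicate 2, and a transcript with no defined coding sequence took 57.9 and 34.8. The protein-coding transcripts together were assigned 42.0 and 41.3 FPKM, or 20.0% and 19.7%. These shares depend on how reads were divided among transcripts with shared bases. By the median exon coverage of the reference coding transcript, on the FPKM scale, *NDRG1* stood at 183 and 162.

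The full-length coding transcript of *NDRG1*, ENST00000323851, was given 12.8 and 17.6 FPKM. Its first exon had a summed coverage of 992 and 879 reads per base, and its last exon 872 and 808. Of the coverage of that last exon, 0.112 and 0.0683 reads per base were assigned to this transcript, the rest going to other transcripts that hold the same bases. The median of its 16 exons was 1012 and 844 reads per base and so differed less between the libraries than the share of the transcript without a coding sequence did.

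No promoter peak was found at *NDRG1* in either replicate. The replicate 1 peak nearest to it lay at chr8:134228883-134229122, 20296 bp beyond the 3′ end of the gene and 24648 bp from its nearest annotated start, and held 1 core, 13 bp from its centre. None of its bases lay in an exon. In replicate 2 a peak at chr8:134249481-134251313 covered 94.2% of the last exon, and 3 more lay beyond the 3′ end within 50 kb.

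The partners of these genes in the pathway were mostly expressed, with 97 of 105 at a mean FPKM of at least 1, beside 59.7% of protein-coding genes. Of 12 genes of the mTOR complexes with RHEB, 11 reached a mean of 1 FPKM and the median was 12.7. *RHEB*, the GTPase that the TSC complex inactivates, was highest at 78.5 and 96.3, ahead of *MAPKAP1* (32.2 and 31.0), a subunit of mTOR complex 2, and of the kinase gene *MTOR* itself (22.7 and 21.2). All 16 genes of GATOR, KICSTOR and the amino acid sensors passed, at a median of 6.85, led by *SEC13* (40.5 and 38.2). *SEH1L* (15.9 and 17.2) and *WDR59* (10.9 and 12.1), which like *SEC13* are parts of the GATOR2 complex that sestrins bind, came next.

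All 12 genes of the Rag GTPases and Ragulator passed as well, at a median of 16.4, with *LAMTOR5* (63.1 and 58.7), *RRAGA* (58.2 and 55.6) and *LAMTOR4* (34.0 and 30.6) highest. Of 12 genes of LKB1 and AMPK, the energy sensor that phosphorylates TSC2, 10 passed at a median of 15.9, led by *PRKAG1* (27.3 and 24.4), *PRKAA1* (20.6 and 24.0) and *STK11* (21.1 and 22.2), while *PRKAG3*, a subunit of skeletal muscle, was listed at 0. All 12 effectors of mTOR complex 1 passed at a median of 17.6. Among them *RPS6*, the ribosomal protein that S6 kinase phosphorylates, had 647 and 629, *EIF4EBP1*, the translation repressor, 116 and 102, and *EIF4EBP2* 30.5 and 31.2. Both arms downstream of the brakes were thus present as RNA, and their activity was not measured.

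The paralogs of *TXNIP* and *NDRG1* in this list were all lower than these genes. Of 8 arrestin-fold and NDRG paralogs 7 passed, at a median of 11.3, with *NDRG3* (15.1 and 20.0), *ARRDC3* (16.0 and 16.9) and *ARRDC2* (13.7 and 14.0) highest and *ARRDC5* listed at 0. Of 8 genes of the thioredoxin system and the regulators of *TXNIP* 7 passed, at a median of 17.9. *TXN*, the thioredoxin that TXNIP binds, had 228 and 244 FPKM against 153 and 159 for *TXNIP*, and *TXNRD1*, its reductase, had 218 and 228, ahead of the mitochondrial *TXN2* (23.1 and 19.3).

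Stress transcription factors were present at very different levels. Of 14 factors 11 passed, at a median of 11.1. *ATF4*, the factor of the integrated stress response, was highest at 224 and 245, followed by *HIF1A* (110 and 114) and *CEBPB* (47.0 and 47.6), and *TP63* was listed at 0. All 13 targets of stress responses, a list that holds *DDIT4* and *SESN2*, passed at a median of 26.5. *DDIT4* was the most abundant of them, ahead of *TRIB3* (60.1 and 96.8) and *GADD45A* (63.6 and 61.1), and *SESN2* lay above the median.

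**Figure D5:**
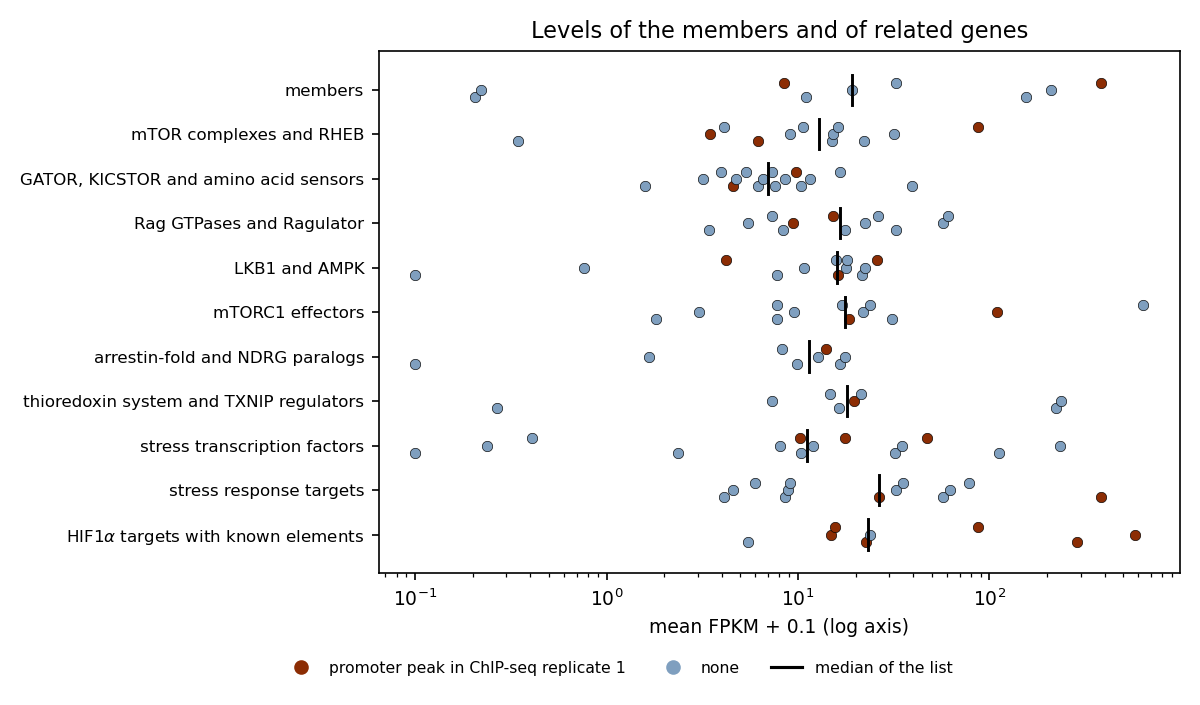
Mean FPKM plus 0.1, on a log axis, of each gene in the 9 genes and in the lists of related genes, with 1 point per gene, dark where ChIP-seq replicate 1 had a promoter peak, and a bar at the median of each list. *DDIT4* stands to the right in its own list and, being a member of both, among the stress response targets.

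Promoter peaks of replicate 1 were found at 18 of 105 genes of these pathway lists, the 9 genes and the HIF1α targets left out, which is 17.1%, beside 5.49% of protein-coding genes and 8.60% of expressed ones. Replicate 2 had them at 19 of the 105 (18.1%, beside 14.0% and 20.0%) and both replicates at 3 (2.86%, beside 1.79% and 2.87%). The replicate 1 genes were *RHEB*, *RICTOR* and *PRR5L* of the mTOR complexes, *ITFG2* and *BMT2* of the sensors, *RRAGC* and *FNIP2* of the Rag list, *STRADB*, *PRKAA2* and *PRKAG1* of AMPK, *RPS6KB2* and *EIF4EBP1* of the effectors, *ARRDC2*, *MLXIP*, *CEBPB*, *FOXO3* and *NR3C1*, and *VLDLR* among stress targets. Lists were not tested, and nothing particular to them is read from these shares.

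HIF1α targets with known response elements give a measure of what the ChIP-seq lists hold at such genes. Of 8 targets, 6 had a promoter peak in replicate 1 (*CA9*, *VEGFA*, *PDK1*, *ANKRD37*, *BNIP3* and *PGK1*), 6 in replicate 2 and 5 in both, with overlapping peaks at *PDK1*, *ANKRD37*, *BNIP3* and *PGK1*. At none of the 9 genes did the promoter peaks of both replicates overlap, as they did at 0.926% of protein-coding genes and 1.48% of expressed ones, so an absence among 9 genes says little. All 8 targets were expressed, at a median of 23.1 FPKM. *DDIT4*, with 388 and 376 FPKM, lay above *BNIP3* (280 and 297) and below *PGK1* (620.1 and 539) in both libraries, and *VEGFA* (87.4 and 86.7) lay below *TXNIP*.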

How the data were processed

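The data were HIF1α ChIP-seq peak positions and RNA-seq transcript levels of HK2 cells under 50 μM FG-4592, with 2 libraries each. For ChIP-seq the authors trimmed reads with cutadapt, aligned them to hg19 with Bowtie2, took those that mapped uniquely and ran MACS2 on each replicate. The MACS2 version, threshold and control are not given in the sources used here. The deposited peak lists give start and end positions, with no score, so peaks could not be ranked and their depth is unknown. For RNA-seq the authors used HISAT2 and StringTie 1.3.3 with GENCODE 27, and the deposited tables give coverage, FPKM and TPM for each transcript and coverage for each exon. The methods name hg19, but the tables carry GRCh38 coordinates, so levels were joined to GENCODE 44 on GRCh37 by Ensembl identifier and never by position.

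FPKM was summed per gene, and genes with a mean of at least 1 counted as expressed. Log2 ratios used a pseudocount of 1. Exon coverage was summed over transcripts sharing the exon. A promoter was 1 kb to either side of any annotated start, a peak within 50 kb of a gene body counted as near it, and an overlap needed 1 bp. Motifs were ACGTG or GCGTG, the E-box CACGTG, and the ATF4 element TGATGNAA, on both strands, in the GRCh37 genome and in RefSeq promoter windows. Shares over protein-coding genes served as background. With all 4 libraries in 1 condition, no test was run, and SDs rest on 2 libraries. Depth was 4442 and 4202 Mb of covered bases.

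The genes that could be named were the 9 genes, and in each list the 3 with the highest mean, those with a replicate 1 promoter peak and those listed at 0. Peaks named were all replicate 1 peaks within 50 kb and the replicate 2 peaks at promoters or overlapping replicate 1. Other peaks and genes, such as nearest neighbours and peaks in last exons, were chosen after their values were seen. List genes not used here were left out of the counts. The 9 genes and the lists were chosen with earlier results of these data known. Alternatives covered the unit, the minimum FPKM, the pseudocount, the transcripts counted, the promoter window and starts, the overlap, exonic peaks and each replicate. The code was tested on simulated data. Software was Python 3.11.15 with numpy 2.4.6 and matplotlib 3.10.9.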

Additional observations from a re-analysis of the deposited data

How the results depend on the processing

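No paired analysis was possible because all libraries carried the same treatment, and the results come from no test. The count of 7 expressed genes held with TPM, with a minimum of 0.5 or 5, with the largest transcript, with protein-coding transcripts alone (chosen after seeing the data) and, with either RNA-seq replicate left out, it ranged from 7 to 7. The median of 19.1 FPKM over the 9 genes fell to 7.58 with protein-coding transcripts alone, 4.48 with the largest transcript and 10.1 with median exon coverage, while the 3.38 FPKM of protein-coding genes fell to 2.29 and 1.87 under the first pair of these. The median over the 9 genes ranged from 18.6 to 19.6 with either RNA-seq replicate left out, and all of these settings were chosen after seeing the data. The number of genes with a leading transcript above 50% of the FPKM was 6 and ranged from 6 to 7 with either RNA-seq replicate left out, a setting chosen after seeing the data. With replicate 2 alone *SESN1* (47.0%) dropped out, while *NDRG1* (50.1%) and *TSC1* (53.7%) came in. *DDIT4L* and *SESN3*, at means of 0.122 and 0.106 FPKM, are counted here although nearly absent. The share of all protein-coding genes under this rule was not computed, so nothing particular to the 9 genes is read from the count. The 1 gene with a promoter peak in both ChIP-seq replicates, *DDIT4*, stayed under windows of 3 kb and 10 kb, with the 5′ end alone and with starts of protein-coding transcripts alone (chosen after seeing the data), beside 2.66%, 4.94%, 0.982% and 1.37% of protein-coding genes. The count was 0 where the peaks had to overlap by 1 bp, 0 where they had to overlap by 50% of the shorter, and 0 with peaks that had over 50% of their bases in exons left out, beside 0.926%, 0.870% and 0.270%. With 1 ChIP-seq replicate left out it ranged from 2 (*DDIT4* and *SESN1*, without replicate 2) to 3 (*DDIT4*, *TXNIP* and *TSC2*, without replicate 1), since 1 list then decides. By replicate, the 5′ end alone gave 1 gene in replicate 1 (*DDIT4*), beside 4.28%, and 2 in replicate 2 (*DDIT4* and *TXNIP*), beside 5.75%, so neither *SESN1* nor *TSC2* stayed. Windows of 3 kb gave 2 and 4 genes, with *NDRG1* added in replicate 2, beside 6.23% and 22.8%, and windows of 10 kb 2 and 5, with *TSC1* added as well, beside 8.13% and 37.6%. Among expressed genes replicate 2 reached 32.1% and 50.3% under these windows, and nothing particular to the 9 genes is read from the rise. Genes with a response element core went from 4 with RefSeq windows to 9 with 1 kb to either side of the 5′ end, a change of window, starts and genes, since no RefSeq window of *NDRG1* was used here. Over the 8 genes that had one, 1 kb to either side of the 5′ end gave 8 (chosen after seeing the data). There the starts changed along with the window length, and their parts in the rise were not told apart. Mean levels moved by more than 1 SD for 5 of 9 genes with the largest transcript, 4 with protein-coding transcripts and 7 with median exon coverage (chosen after seeing the data). Scaled TPM is proportional to FPKM, and leaving out 1 of 2 libraries cannot move a mean by 1 SD, so neither tests these levels. The median log2 ratio of the replicates was -0.00, and -0.01 with a pseudocount of 0.1 and over the 7 expressed genes. The values of *DDIT4L* rest on 599 and 899 covered bases and those of *SESN3* on 5683 and 5244, so few fragments lie behind either gene. The cause of these shifts was not tested.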

Other observations

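Of the 97 expressed partners of the 9 genes, 23 (23.7%) differed between the RNA-seq libraries by a larger ratio than any of the 7 expressed genes did, 13 of them higher in replicate 2 and 10 higher in replicate 1. Of the 11726 expressed protein-coding genes 29.5% did so, so the partners as a group do not stand out. *CAB39*, the scaffold of LKB1, had 11.8 FPKM in replicate 1 and 24.0 in replicate 2, *EPAS1*, which encodes HIF2α, had 27.3 and 42.4, and *TRIB3* had 60.1 and 96.8. Higher in replicate 1 were *CHAC1* (11.6 and 6.46) and *ASNS* (39.9 and 30.4), which like *TRIB3* are stress response targets, and the stress factor *DDIT3* (36.3 and 27.8). Others were low in both libraries: *DEPTOR*, an inhibitory subunit of mTOR, stood at 0.271 and 0.221, and *MLXIPL*, the glucose-responsive regulator of *TXNIP*, at 0.269 and 0.0691, beside 20.1 and 19.0 for its relative *MLXIP*. These genes were chosen after their values were seen.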
